A study of Mus musculus with 8 samples.

Results

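The GIMAP genes encode GTPases of immunity-associated proteins, a family of GTP-binding proteins made mainly in lymphocytes. The mouse family members analysed were *Gimap1*, *Gimap3*, *Gimap4*, *Gimap5*, *Gimap6*, *Gimap7*, *Gimap8* and *Gimap9*, chosen by name: 8 of the 23284 genes that the expression tables list. RNA sequencing was available for naïve CD4 T cells and for effector Th1, Th2 and Th17 cells made from such cells in culture, with 2 libraries in each of the 4 groups. All cells came from DO11.10 Tg mice, which carry a transgenic T cell receptor specific for an ovalbumin (OVA) peptide, so every group shared that receptor transgene. Naïve cells were sorted from spleen as CD4 T cells with the surface markers of the naïve state, low CD44 among them, and were not cultured. The 3 effector groups had been stimulated for 6 days, per the study's methods with OVA peptide and irradiated splenocytes depleted of T cells. Th1 cultures held 30 U/ml IL-2 and 100 U/ml IL-12 with 1 μg/ml of an antibody to IL-4. Th2 cultures held 30 U/ml IL-2 and 100 U/ml IL-4 with 10 μg/ml of an antibody to IFNγ. Th17 cultures held 10 ng/ml each of IL-6, IL-1β and IL-23 with 10 μg/ml each of the antibodies to IL-4 and IFNγ. Each comparison of an effector subset with naïve cells is therefore also a comparison of cultured, stimulated cells with unstimulated ones, and these cannot be told apart.

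GIMAP proteins share a GTP-binding domain called AIG1, and several are anchored to the membranes of intracellular compartments. Mice and rats without functional GIMAP5 lose T cells, and loss of GIMAP1 depletes mature T and B cells, so the family is best known for keeping resting lymphocytes alive. GIMAP proteins have been linked to BCL2 family proteins, to the ATG8 proteins of autophagy and to GSK3β, and these groups of genes are described after the family itself.

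Values were FPKM, the number of fragments per kilobase of exon scaled to the number of mapped reads, so that levels of different genes can be set side by side. Differences between groups are given on the log2(FPKM + 1) scale with their standard error (SE), from limma fitted to all 8 libraries and the 11198 genes whose FPKM averaged 1 or more. A gene was called higher or lower at a Benjamini-Hochberg adjusted p under 0.05 over all of these genes. All 8 GIMAP genes passed the filter on low values. The labels do not say that the 2 libraries of a group came from separate mice or cultures, so the p-values measure the spread between these libraries only, which may be technical.

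The depth implied by the confidence intervals of the tables was 14463466 to 21058253 fragments per library, and the correlation of replicate libraries was 0.953 to 0.960 over genes. The sum of each list of lineage markers was highest in the group of that label. *Tbx21*, *Ifng*, *Il12rb2* and *Cxcr3* summed to 907 to 1048 FPKM in Th1 cells. This sum was at most 5.10 in naïve cells, 30.4 to 38.1 in Th2 and 124 to 144 in Th17 cells. *Ifng* gave most of the Th1 sum (802 and 614 FPKM). *Cxcr3* was 8.01 and 9.35 FPKM in Th1 but 11.3 and 11.5 in Th17 cells, which did not pass (adjusted p = 0.331). *Gata3*, *Il4*, *Il5* and *Il13* summed to 384 to 417 in Th2 cells and at most 26.4 elsewhere. *Il17a*, *Il17f* and *Il23r* summed to 1355 to 1378 in Th17 cells and at most 2.68 elsewhere. A list of 6 CD4 T cell genes (*Cd3e*, *Cd3g*, *Cd3d*, *Cd4*, *Lck* and *Thy1*) summed to 2459 to 2564 FPKM in naïve cells, 2200 to 2371 for Th1, 1728 to 1767 for Th2 and 1610 to 1813 for Th17. *Cd8b1*, a CD8 T cell gene, stood at 90.5 and 52.8 FPKM in the naïve libraries and at 8.77 to 12.9 in the effector libraries, while *Cd8a* was at most 2.94 throughout. Summed markers were at most 12.1 FPKM for B cells, 27.8 for myeloid cells, 2.29 for dendritic cells, 0.625 for NK cells and 8.57 for erythroid cells and megakaryocytes. Of 4 endothelial genes, *Cdh5*, *Kdr* and *Tek* stayed at or under 0.0812 FPKM, and *Pecam1*, which T cells also express, stood at 22.02 to 66.7. The part of these other cell types in the differences below was not tested. In such bulk libraries, fewer cells of a type and less RNA per cell cannot be told apart.

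The 8 genes lie side by side on chromosome 6. In the mm10 coordinates of the tables they span chr6:48647234-48770851, a stretch of 123618 bases, and the tables place 0 other genes inside it. Along the chromosome the order is *Gimap8*, *Gimap9*, *Gimap4*, *Gimap6*, *Gimap7*, *Gimap1*, *Gimap5* and *Gimap3*. *Gimap6* and *Gimap3* are on the minus strand and the other 6 on the plus strand.

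To show how close *Gimap3* and *Gimap5* are, the longest stretch that their coding sequences share is printed. It is 140 bases long, lies in coding exon sequence, and was found at positions 175 to 314 of the 903 annotated coding bases of *Gimap3* (GENCODE, GRCm38, chr6:48765681-48765820, minus strand) and at positions 187 to 326 of the 924 coding bases of *Gimap5* (chr6:48752684-48752823, plus strand).
Gimap3 and Gimap5 shared coding stretch: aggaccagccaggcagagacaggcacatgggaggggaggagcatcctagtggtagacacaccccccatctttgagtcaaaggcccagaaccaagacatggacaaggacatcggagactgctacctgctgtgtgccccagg
A 50-base read from inside this stretch has no base by which to assign it to either gene. Over the whole annotated transcripts, 7.52% of the 50-base words of *Gimap3* also occur in *Gimap5* and 4.53% of those of *Gimap5* occur in *Gimap3*. *Gimap4*, *Gimap8* and *Gimap9* share 0 such words with any other gene. *Gimap1* shares 35.5%, 32.4% with *Gimap1os*, an antisense transcript that covers 36.0% of its exon bases, and the sources disagree on whether the libraries kept the strand. A read-through gene, *Gm28053*, covers 3.48% of the exon bases of *Gimap7*, 6.44% of those of *Gimap1* and 3.69% of those of *Gimap5*. With 0 other genes placed in the span, *Gimap1os* and *Gm28053* had no values of their own. Reads from them may therefore count toward the members that they overlap. How Cufflinks divided reads between *Gimap3* and *Gimap5* is not given in the sources used here. The values of *Gimap1*, *Gimap3*, *Gimap5* and *Gimap7* are uncertain to that extent.

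The 250 bases before the start site are printed for *Gimap7*, the member that was higher in effector Th1 and Th2 cells than in naïve cells, and for *Gimap4* and *Gimap6*, which showed the largest falls in Th17 cells. Sequences are from RefSeq on GRCm38.p6, on the strand of the gene, and capitals mark matches to the motifs searched.
Gimap7 (chr6:48718371-48718620, plus strand): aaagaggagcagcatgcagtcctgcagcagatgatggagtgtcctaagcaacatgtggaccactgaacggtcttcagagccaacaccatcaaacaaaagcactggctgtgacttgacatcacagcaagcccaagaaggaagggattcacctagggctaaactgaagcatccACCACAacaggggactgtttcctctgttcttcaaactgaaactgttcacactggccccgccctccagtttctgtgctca
Gimap4 (chr6:48684328-48684577, plus strand): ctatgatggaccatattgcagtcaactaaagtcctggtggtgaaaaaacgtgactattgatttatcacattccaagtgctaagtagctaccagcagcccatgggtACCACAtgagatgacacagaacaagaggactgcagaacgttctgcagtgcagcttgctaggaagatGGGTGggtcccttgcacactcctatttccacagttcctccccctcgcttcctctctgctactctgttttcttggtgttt
Gimap6 (chr6:48708245-48708494, minus strand): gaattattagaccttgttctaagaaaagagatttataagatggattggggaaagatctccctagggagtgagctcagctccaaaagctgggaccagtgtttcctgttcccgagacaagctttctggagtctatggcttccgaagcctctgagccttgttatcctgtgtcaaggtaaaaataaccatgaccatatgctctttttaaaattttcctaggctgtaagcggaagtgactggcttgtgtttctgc
Motifs were searched on both strands of the 300-base windows (250 bases before and 50 after the start site), of which the family had 9, with at least 1 for each of the 8 genes. TGTGGT, which RUNX factors bind, occurred in 3 of the 9 windows, those of *Gimap1*, *Gimap4* and *Gimap7*, each time as the reverse complement ACCACA. It occurred in 16.8% of the 32851 windows of all genes. CACCC, part of the sites of KLF factors, occurred in 6 of the 9 windows, beside 57.5% of all windows. These 6 belong to 5 of the 8 members (*Gimap3*, *Gimap4*, *Gimap5*, *Gimap8* and *Gimap9*). The FOXO motif GTAAACA was found in *Gimap3* alone among the members and in 3.65% of all windows. Of the TCF/LEF motifs, CTTTGAA was found in *Gimap7*, after its start site, and in 5.14% of all windows, and CTTTGTT in 0 members and 5.85% of windows. CCGGAAG, a sequence that ETS factors bind, was found in 0 members and in 8.86% of windows. Shorter or other forms of the ETS site were not searched, so their presence is not described here. These are matches of letters only. *Gimap7*, which rose in Th1 and Th2 cells, and *Gimap4*, which fell, both hold the RUNX match, and *Gimap6* holds 0 of the motifs searched.

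Summed over the family, GIMAP transcripts were lower in all 3 effector subsets than in naïve cells and lowest in Th17 cells. The summed FPKM of the 8 genes was 2824 and 2617 in naïve cells, against 1772 and 1730.2 for Th1, 1332 and 1182 for Th2, then 802 and 766 for Th17. No library of a group overlapped another group, and the order was naïve, Th1, Th2, Th17. As a share of the naïve mean of 2720.4 ± 146 (SD, n = 2), Th1 cells had 64.4%, Th2 cells 46.2% and Th17 cells 28.8%. The family took up 0.563% and 0.626% of all FPKM in the naïve libraries and 0.160% and 0.159% in Th17. Of the 6 CD4 T cell genes given above, 3 were lower than in naïve cells for Th1, 4 for Th2 and 5 for Th17, and 1, *Thy1*, was higher for Th1 (0.55, adjusted p = 0.00545), beside the sums given there. The shares of all genes tested were 33.5%, 38.7% and 29.8% lower, in the same order, and 33.8% higher for Th1.

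**Figure D1:**
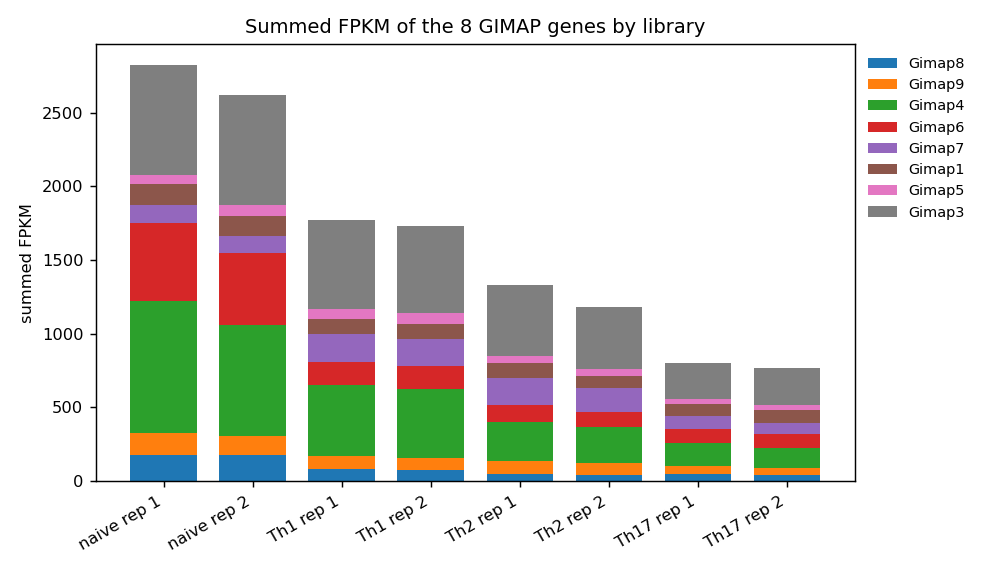
Summed FPKM (vertical axis) of the 8 GIMAP genes in each of the 8 libraries (horizontal axis), each color being 1 gene. The bars run from 2824 in naïve replicate 1 to 766 in Th17 replicate 2, and the Gimap4 portion shrinks the most.

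The make-up of the family also differed between groups. *Gimap4* and *Gimap3* were the most abundant members, ranks 1 and 2 in both naïve libraries, where *Gimap4* made up 31.7% and 28.7% of the family sum. In every effector library *Gimap3* ranked first, with 30.8% to 36.1% of the sum, and *Gimap4* second. *Gimap5* was the lowest of the 8 genes in every library except Th2 replicate 2, where *Gimap8* was lower at 38.7 against 49.4 FPKM. *Gimap6* went from 18.9% and 18.7% of the family sum in naïve cells to 8.49% and 8.87% in Th1 cells, and *Gimap7* went from 4.33% and 4.34% to 11.1% and 10.6%.

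**Figure D2:**
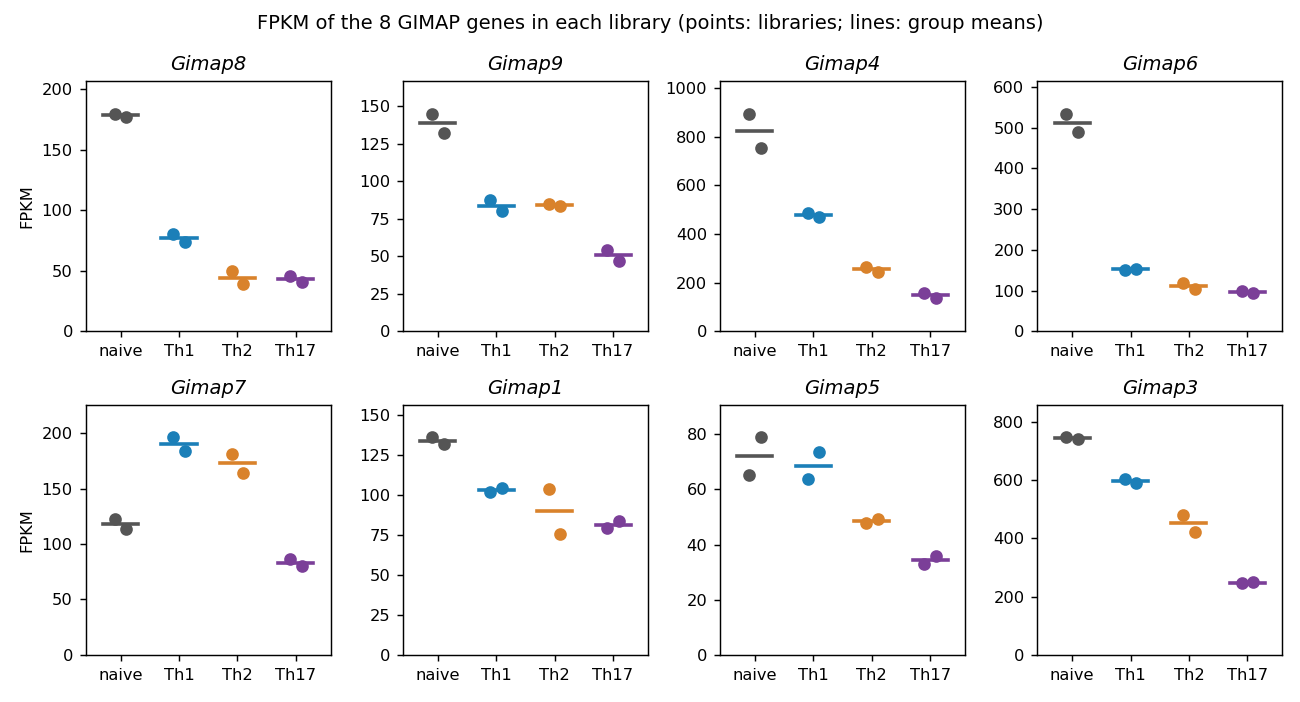
FPKM (vertical axes, each starting at 0 with its own scale) of each GIMAP gene in naïve, Th1, Th2 and Th17 cells (horizontal axes), genes in chromosome order; points are libraries and lines are group means of 2 libraries. Gimap7 is the gene whose Th1 and Th2 points lie above the naïve points, and for Gimap5 the naïve and Th1 points overlap.

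Against naïve cells, Th1 cells had 5 GIMAP genes lower, 1 higher and 2 that did not pass the test, beside 33.5% of all genes tested called lower and 33.8% called higher. In Th2 cells 7 were lower and 1 higher, beside 38.7% and 31.8% of all genes. In Th17 cells all 8 were lower, beside 29.8% of all genes lower and 37.5% higher. The median difference of the 8 genes from naïve cells was -0.55 for Th1, where all genes tested had -0.01, it was -0.71 against -0.11 for Th2, and it was -1.51 against 0.08 for Th17. The 3 comparisons use the same 2 naïve libraries and are not independent of each other.

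**Figure D3:**
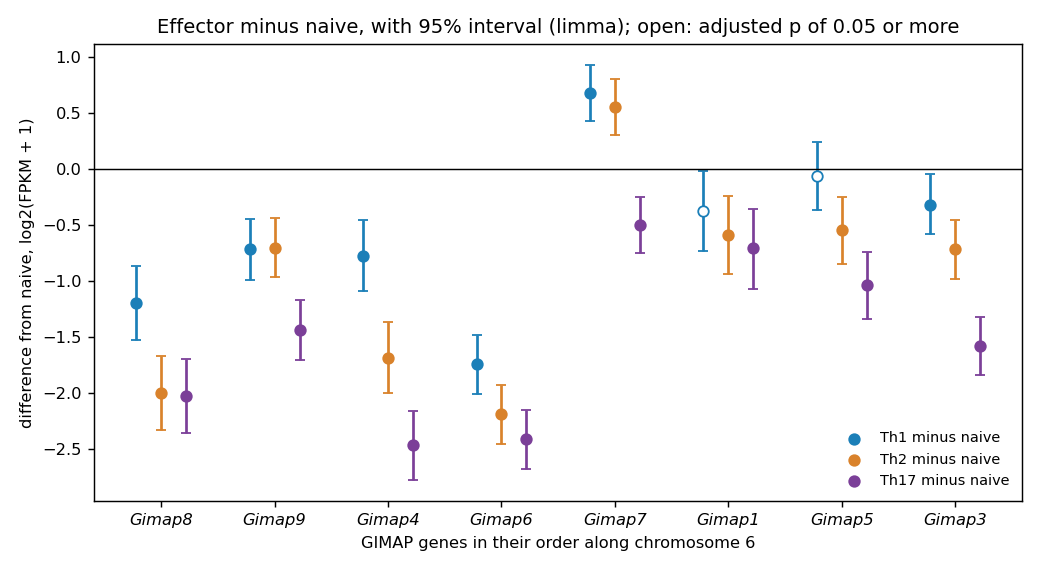
Difference from naïve cells on the log2(FPKM + 1) scale (vertical axis) of each GIMAP gene (horizontal axis, in chromosome order) in Th1, Th2 and Th17 cells, with 95% intervals from limma; open symbols did not pass an adjusted p of 0.05. All points lie below 0 except those of Gimap7 in Th1 and Th2 cells, and the open symbols are Gimap1 and Gimap5 in Th1 cells.

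*Gimap5*, a lysosomal membrane protein required for the survival of peripheral T cells, was at 65.0 and 78.9 FPKM in naïve cells, against 63.6 and 73.7 for Th1, 47.7 and 49.4 for Th2, then 33.0 and 35.8 for Th17. Naïve and Th1 values overlapped, and the Th2 and Th17 values lay below both, in that order. The Th1 minus naïve difference was -0.06 (SE 0.13, 95% interval -0.37 to 0.24, adjusted p = 0.676), so neither a small fall nor a small rise lies outside its error. *Gimap5* was lower in Th2 (-0.55, adjusted p = 0.00652) and in Th17 cells (-1.04, adjusted p = 0.000314).

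*Gimap3*, the close relative of *Gimap5* in the mouse, was far more abundant, at 746 and 742 FPKM in naïve cells, against 605 and 590.5 for Th1, 481 and 423 for Th2, then 247 and 249 for Th17. All 4 groups were apart, in the order naïve, Th1, Th2, Th17. It was lower in all 3 subsets, its differences from naïve cells being -0.32 for Th1 (SE 0.11, adjusted p = 0.0378), -0.72 for Th2 (adjusted p = 0.000882) and -1.58 for Th17 (adjusted p = 1.83e-05). The Th1 call was the weakest of these and was lost when any naïve, Th1 or Th17 library was left out, with differences of -0.33 to -0.30, and after median scaling (adjusted p = 0.0528). *Gimap3* stood at 6.96 to 11.5 times the FPKM of *Gimap5* in the 8 libraries, with the lowest ratios, 7.49 and 6.96, in Th17 cells.

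*Gimap1*, which mature T and B cells need to persist, was at 136 and 132 FPKM in naïve cells, against 102 and 104 for Th1, 104 and 76.0 for Th2, then 79.2 and 83.8 for Th17. The naïve libraries were highest, and the 3 effector subsets did not pass the test against each other, the Th2 libraries being the most spread. It was lower in Th2 (-0.59, SE 0.15, adjusted p = 0.00994) and in Th17 cells (-0.71, adjusted p = 0.00445). In Th1 cells the difference was -0.38 (95% interval -0.73 to -0.02, adjusted p = 0.0577), which did not pass. With the replicate number as a block this adjusted p became 0.0464 and the call passed, as it did after quantile normalization (adjusted p = 0.00364). It also passed in a fit of the 2 groups alone, without the Th2 and Th17 libraries (SE 0.09 against 0.15, adjusted p = 0.0213). With voom on the fragment numbers that the intervals imply, the difference was -0.58 (adjusted p = 0.0137).

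*Gimap4*, a cytosolic member reported to speed the death of T cells that have begun apoptosis, had the highest level in naïve cells and the largest fall in Th17 cells. It stood at 894 and 752 FPKM in naïve cells, against 487 and 471 for Th1, 264 and 244 for Th2, then 158 and 137 for Th17. The 4 groups were all apart. It was lower in all 3 subsets, its differences from naïve cells being -0.78 for Th1 (SE 0.13, adjusted p = 0.0017), -1.69 for Th2 (adjusted p = 3.08e-05) and -2.47 for Th17 (adjusted p = 5.07e-06), the naïve mean being 5.58 times the Th17 mean. The second naïve value has a wide interval in the tables, 15.6% to either side, and with voom on the fragment numbers that the intervals imply, the *Gimap4* differences were 2.21, 1.84 and 0.61 and did not pass (adjusted p 0.298 to 0.78).

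*Gimap6*, which binds an ATG8 protein of the autophagy machinery, dropped sharply in every effector subset. It was at 535 and 489 FPKM in naïve cells, against 150.4 and 153 for Th1, 120 and 103 for Th2, then 97.9 and 92.8 for Th17. Every effector library lay far below the naïve libraries. It was lower in all 3 subsets, its differences from naïve cells being -1.74 for Th1 (SE 0.11, adjusted p = 1.36e-05), -2.19 for Th2 (adjusted p = 3.76e-06) and -2.41 for Th17 (adjusted p = 2.63e-06).

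*Gimap8*, the longest member, which carries several GTP-binding domains, followed a like course. Its FPKM was 179.6 and 177 in naïve cells, against 80.5 and 73.9 for Th1, 49.9 and 38.7 for Th2, then 45.6 and 40.4 for Th17. Naïve cells were highest and Th1 next, while Th2 and Th17 overlapped. It was lower in all 3 subsets, its differences from naïve cells being -1.20 for Th1 (SE 0.14, adjusted p = 0.000249), -2.0 for Th2 (adjusted p = 1.69e-05) and -2.03 for Th17 (adjusted p = 1.68e-05). The first naïve value is marked as a failed estimate in the tables, 1 of the 64 member values, but lay close to the second, and leaving that library out changed none of the *Gimap8* calls against naïve cells. With voom on implied fragments the 3 differences were 1.79, 0.75 and 0.53 and did not pass.

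*Gimap9* was at 145 and 132 FPKM in naïve cells, against 87.6 and 80.1 for Th1, 85.2 and 83.8 for Th2, then 54.5 and 46.8 for Th17. Th1 and Th2 values overlapped between the naïve and Th17 values. It was lower in all 3 subsets, its differences from naïve cells being -0.72 for Th1 (SE 0.11, adjusted p = 0.0011), -0.71 for Th2 (adjusted p = 0.00109) and -1.44 for Th17 (adjusted p = 3.19e-05).

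*Gimap7*, a GTPase that becomes active by pairing with another molecule of its kind, was the exception. It was at 122 and 114 FPKM in naïve cells, against 196 and 184 for Th1, 181 and 164 for Th2, then 86.6 and 79.9 for Th17. Every Th1 and Th2 library lay above both naïve libraries, and both Th17 libraries lay below them. *Gimap7* rose by 0.68 in Th1 (SE 0.11, adjusted p = 0.00104) and by 0.55 in Th2 cells (adjusted p = 0.00283), and fell by 0.50 in Th17 cells (adjusted p = 0.00466). These 3 calls kept their direction and passed under every alternative, with 0.38 to 0.74 for Th1, 0.45 to 0.68 for Th2 and -0.72 to -0.44 for Th17. The ratio of *Gimap7* to *Gimap9* within a library was 0.843 and 0.858 in naïve cells, against 2.24 and 2.29 for Th1, 2.13 and 1.96 for Th2, then 1.59 and 1.71 for Th17. In Th17 cells, where both genes fell, *Gimap7* thus still stood above *Gimap9*, unlike in naïve cells.

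Between the effector subsets, Th1 cells kept the most GIMAP transcript and Th17 cells the least. Against Th2, Th1 cells had 5 of the 8 genes higher and 0 lower, beside 27.4% of all genes tested called higher and 16.9% lower. The largest of these differences were those of *Gimap4* (0.91, adjusted p = 0.00178) and *Gimap8* (0.80, adjusted p = 0.00398), followed by *Gimap5* (0.49, adjusted p = 0.02), *Gimap6* (0.45, adjusted p = 0.0171) and *Gimap3* (0.41, adjusted p = 0.023). *Gimap1* (0.21, 95% interval -0.14 to 0.56), *Gimap7* (0.14, -0.11 to 0.39) and *Gimap9* (-0.01, -0.28 to 0.25) did not pass. The count fell to 3 without Th1 replicate 1 and to 2 without Th1 replicate 2 or Th2 replicate 2, and was 3 after quantile normalization and 3 with voom. *Gimap4* and *Gimap8* were called with any library left out, though not with voom.

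Against Th2, Th17 cells had 5 genes lower and 0 higher, beside 12.0% of all genes called lower and 31.7% higher. *Gimap7* fell furthest (-1.04, adjusted p = 0.000498), then *Gimap3* (-0.86, adjusted p = 0.00131), *Gimap4* (-0.78, adjusted p = 0.00398), *Gimap9* (-0.73, adjusted p = 0.0027) and *Gimap5* (-0.49, adjusted p = 0.0207). The call of *Gimap5* was lost when any Th2 or Th17 library was left out. *Gimap6* (-0.22, adjusted p = 0.152), *Gimap1* (-0.12, adjusted p = 0.533) and *Gimap8* (-0.03, adjusted p = 0.863) did not pass, although *Gimap6* did after median scaling (-0.40, adjusted p = 0.0263) and after quantile normalization (-0.35, adjusted p = 0.0304). With voom the count was 4, and *Gimap4* (-1.23, adjusted p = 0.615) did not pass.

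Against Th17, Th1 cells had 7 genes higher and 0 lower, beside 9.17% of all genes called higher and 16.0% lower. The differences ran from 0.67 for *Gimap6* (adjusted p = 0.00552) to 1.70 for *Gimap4* (adjusted p = 0.000191), with *Gimap3* at 1.27, *Gimap7* at 1.18, *Gimap5* at 0.97, *Gimap8* at 0.83 and *Gimap9* at 0.72. The exception was *Gimap1*, at 0.33 (adjusted p = 0.157). For the 8 genes, *Gimap1* included, both Th1 libraries lay above both Th17 libraries, as they did for 22.9% of all genes tested. With voom on implied fragments the count was 5, and *Gimap4* (1.60, adjusted p = 0.574) and *Gimap8* (1.27, adjusted p = 0.682) did not pass. The median of the family was 0.90, against -0.08 over all genes tested. At least 1 of the 3 comparisons between subsets was passed by 7 of the 8 genes, beside 59.9% of all genes tested.

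The order of the groups therefore differed between members. *Gimap3* and *Gimap4* stepped down from naïve through Th1 and Th2 to Th17, each neighbouring pair passing the test. For *Gimap3* the step from naïve to Th1 was the weak call given above. Its step from Th1 to Th2 was weak as well. It did not pass after quantile normalization (adjusted p = 0.0536) or in a fit of the 2 groups alone (adjusted p = 0.0616). With a library left out, the size of this *Gimap3* step ran from 0.31 to 0.50. With voom the *Gimap4* steps did not pass. For *Gimap6* and *Gimap8* the last step, Th2 to Th17, did not pass, and for *Gimap5* the first, naïve to Th1, did not. *Gimap9* had 3 levels, with Th1 and Th2 not told apart in the middle. *Gimap7* had 3 levels of another order, Th1 and Th2 not told apart at the top, then naïve, then Th17. For *Gimap1* no neighbouring pair passed, although its ends, naïve and Th17, differed.

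Across the 8 libraries, which fall into 4 groups and so mostly reflect the group means, members were compared by Pearson's r of log2(FPKM + 1). *Gimap4* was most like the mean of the other 7 genes (r = 0.987) and *Gimap7* least like it (r = 0.325), the remaining members having 0.848 to 0.980. Of the 28 pairs, *Gimap6* and *Gimap8* had the highest r, 0.980, and *Gimap6* and *Gimap7*, neighbours on the chromosome, the lowest, -0.01.

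Most of the tested genes beside the cluster rose. Of the 5 nearest genes on each side, 6 passed the filter on low values, and 5 of these were higher in each of the 3 effector subsets than in naïve cells. For comparison, the fraction of all genes tested that was called higher was 33.8% (Th1), 31.8% (Th2) and 37.5% (Th17). On the far side of *Gimap3*, 62961 bases away, *Tmem176b*, which encodes an ion channel of intracellular membranes, was at 3.07 and 2.51 FPKM in naïve cells, against 73.5 and 92.9 for Th1, 14.9 and 15.0 for Th2, then 15.5 and 21.96 for Th17. It was higher than in naïve cells by 4.47 for Th1 (SE 0.18, adjusted p = 1.74e-06), 2.08 for Th2 and 2.36 for Th17. Its neighbour *Tmem176a* rose by 4.87, 2.47 and 2.58. On the side of *Gimap8*, *AI854703*, 13546 bases away, rose by 0.78, 1.20 and 1.12, *Repin1* by 1.57, 2.02 and 1.49, and *Gm5111* by 3.19, 2.65 and 1.43 in Th1, Th2 and Th17 cells. *Zfp775*, which lies between these, was -0.05 and -0.17 in Th1 and Th17 cells, which did not pass, and fell by 0.44 in Th2 cells (adjusted p = 0.0235). The 4 genes that did not pass the filter, *Rarres2*, *Abp1*, *1600015I10Rik* and *Doxl2*, stood at 0.411 FPKM or less in every library.

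**Figure D4:**
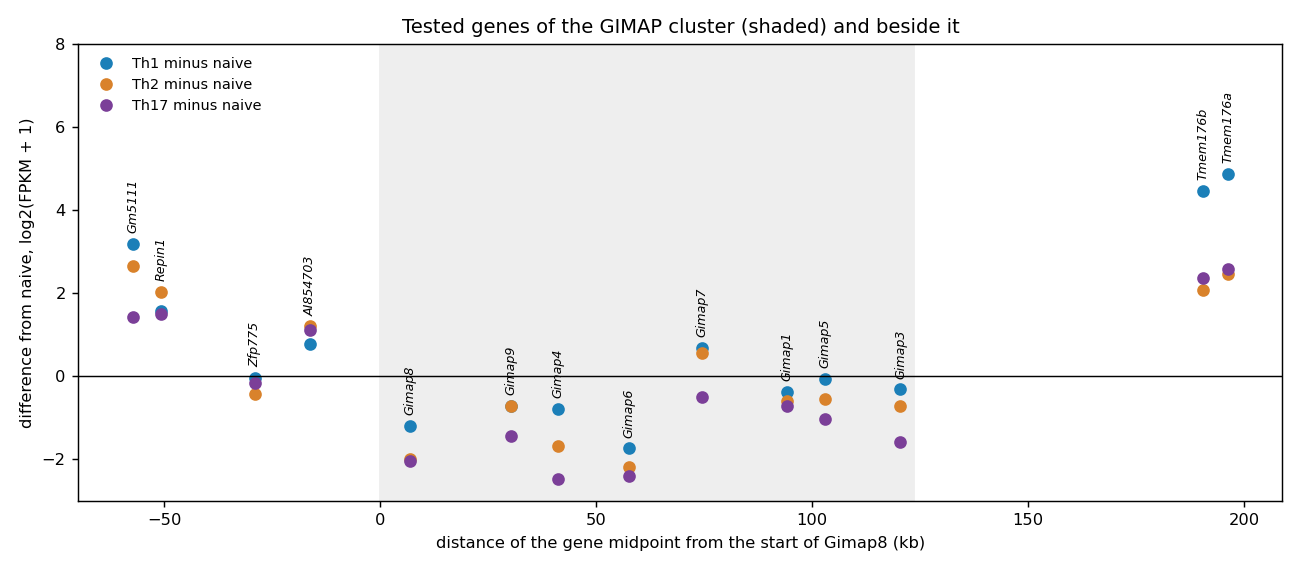
Difference from naïve cells on the log2(FPKM + 1) scale (vertical axis) of the 14 tested genes in and beside the GIMAP cluster, by the distance of the gene midpoint from the start of Gimap8 in kilobases (horizontal axis); each point is a gene in Th1, Th2 or Th17 cells and the cluster is shaded. Points of the neighbours Tmem176a and Tmem176b reach 4.87 and 4.47 in Th1 cells, while inside the cluster the highest point is Gimap7 at 0.68.

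The 8 genes of the BCL2 family and its partners (*Bcl2*, *Bcl2l1*, *Bcl2l11*, *Bax*, *Bak1*, *Bad*, *Mcl1* and *Hspa8*) did not fall as a group. In Th1 cells 7 were higher and 1 lower than in naïve cells, in Th2 4 higher and 1 lower, and in Th17 6 higher and 2 lower. The shares of all genes tested were 33.8%, 31.8% and 37.5% higher and 33.5%, 38.7% and 29.8% lower, in the same order. *Bcl2*, which keeps cells from apoptosis, was at 22.1 and 20.8 FPKM in naïve and 75.2 to 88.2 in all effector libraries, a rise of 1.90 for Th1, 1.86 for Th2 and 1.85 for Th17. *Bcl2l1* rose too, by 2.60 for Th1, 0.55 for Th2 and 2.08 for Th17. *Mcl1* went the other way in Th1 (-1.01, adjusted p = 0.000367) and Th17 cells (-0.94, adjusted p = 0.000524). In Th2 cells its difference of 0.13 did not pass (adjusted p = 0.404). *Bcl2l11*, which encodes the death-promoting protein BIM, rose in Th1 cells (1.36) and fell in Th2 (-0.84) and Th17 cells (-1.19). The death effectors *Bax* and *Bak1* rose in all 3 subsets, by 1.05 to 1.42.

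Of the 5 ATG8 genes of autophagy, 2 were higher in Th1, 3 higher and 2 lower in Th2, and 2 higher in Th17 cells. Among all genes tested, 33.8% were higher and 33.5% lower in Th1 cells, and 31.8% higher and 38.7% lower in Th2 cells. For Th17 cells these shares were 37.5% higher and 29.8% lower. *Gabarapl1* changed most, from 1.78 and 1.23 FPKM in naïve to 27.3 to 54.5 in the effector libraries, while *Gabarapl2*, the ATG8 gene whose product binds GIMAP6, differed by -0.32 (adjusted p = 0.141) in Th1 and -0.29 (adjusted p = 0.184) in Th17 cells and fell by 0.84 in Th2 cells. Of *Gsk3a*, *Gsk3b* and *Ctnnb1*, the genes of the GSK3 kinases and β-catenin, 0 passed in Th1, 1 was lower in Th2 and 2 were lower in Th17 cells, all by less than *Gimap9* fell in the same cells.

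A list of 9 genes of naïve T cells (*Ccr7*, *Il7r*, *Klf2*, *Tcf7*, *Lef1*, *Foxo1*, *S1pr1*, *Satb1* and *Bach2*) fell as well: 7 were lower for Th1, 8 for Th2 and 6 for Th17, and 1 was higher in each subset. The shares of all genes tested were 33.5%, 38.7% and 29.8% lower and 33.8%, 31.8% and 37.5% higher, in the same order. Their summed FPKM was 1906 to 1914 in naïve cells, 501 to 505 for Th1, 425 to 432 for Th2 and 626 to 673 for Th17. The sum of this list was thus lowest in Th2 cells, whereas the GIMAP sum was lowest in Th17 cells. Its genes differed in this. The lowest group mean was that of Th2 for *Il7r*, *Lef1* and *S1pr1*, and that of Th1 for *Ccr7*, *Tcf7* and *Bach2*. It was that of Th17 for *Klf2* and *Foxo1*, and that of naïve cells for *Satb1*, which stood at 193 and 186 FPKM in Th2. *Tcf7*, a transcription factor of naïve T cells, stood at 735 and 741 FPKM in naïve cells, against 5.79 and 7.33 for Th1, 8.08 and 14.1 for Th2, then 51.1 and 67.3 for Th17, and so was higher in Th17 than in the other effector libraries, unlike every GIMAP gene. *Klf2*, a quiescence factor, fell in all 3 subsets, with differences of -3.99 for Th1, -4.36 for Th2 and -4.71 for Th17.

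Outside the family, the gene whose levels over the 8 libraries were most like the mean GIMAP profile was *Sgk1*, a kinase downstream of PI3K, with r = 0.989. Its FPKM was 64.0 and 56.6 in naïve cells, against 34.3 and 33.7 for Th1, 26.6 and 26.1 for Th2, then 15.2 and 13.4 for Th17. The next were *Sgms1* (r = 0.985), *Azi2* (0.984), *Rasgrp1* (0.983), *Ptpn18* (0.978), *Ptprc* (0.976), *Rasgrf2* (0.975), *5830428M24Rik* (0.973), *H2-Q9* (0.971) and *Dapp1* (0.971). *Ptprc*, which encodes the leukocyte antigen CD45, fell from 303 and 305 FPKM in naïve cells to 108 and 107 in Th17 cells. For *Gimap7* the most similar gene was another one, *Nfya*, a subunit of the CCAAT-binding factor NF-Y, with r = 0.967 and 23.4 and 23.3 FPKM in naïve cells, against 28.2 and 28.7 for Th1, 27.8 and 25.3 for Th2, then 17.5 and 18.8 for Th17. *Gimap6* had *2810001G20Rik* (r = 0.998), *Gimap3* had *Arl4c* (0.993) and *Gimap8* had *Socs5* (0.993). These values of r describe 4 groups and were picked as the highest among all genes tested outside the family.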

How the data were processed

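RNA was sequenced on a HiSeq system (50-base reads). The authors aligned reads to mm10 with Bowtie (0.12.8) and TopHat (1.3.2) and computed the deposited FPKM values with Cufflinks (2.0.2); the annotation is not given in the sources used here. The study's methods name an unstranded library kit and the labels a stranded one. Each library has its own table, whose groups and replicate numbers were taken from the sample labels. The 23746 rows were summed by symbol to 23284 genes. FPKM are not counts, so log2(FPKM + 1) was tested with limma (3.58.1, R 4.3.3; two-sided, with a mean-variance trend), with 4 group means in 1 fit and Benjamini-Hochberg adjustment over the 11198 genes whose FPKM averaged 1 or more. The fold on this scale understates changes of low genes. The code was tested on simulated data. Read totals were not given, and depth was estimated from the widths of the deposited confidence intervals as fragments, a measure of counting error only; most member intervals were 1.05% to 5.48% to either side.

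Alternatives were a pseudocount of 0.1, no filter, a minimum mean of 5, median scaling, quantile normalization, only the groups compared, no trend, the replicate number as a block, the largest row of a repeated symbol, each library left out, and voom on the implied fragments, 11 in all. The replicate numbers come from the labels; differences between replicates correlated across all 6 pairs of groups (r = 0.138 to 0.294 over genes), but the labels do not tie a number to a shared culture or day. The block changed 1 call of a GIMAP gene, given in the report. The members, gene lists and motifs were chosen with earlier results of these data known. Genes named were, by rule, the 8 members, genes inside their span and the 5 nearest on each side, the 10 genes most like the mean member profile and the most similar gene to each member, and the lists given in the report. Protein sequences were not used here. Some genes of the marker lists are not reported here.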

Additional observations from a re-analysis of the deposited data

Results flagged for a closer look

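For 7 of the 8 genes, the response relative to naïve cells differed between effector subsets by the test of the difference itself, in which the naïve libraries cancel. Of all genes tested, 59.9% passed at least 1 of the same 3 comparisons between subsets. The entries below give, for each gene, the largest difference between subsets that passed the test, on the log2(FPKM + 1) scale, from limma over all genes tested with 2 libraries a group.

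Th1 cells were above Th17 cells by 1.70 for *Gimap4* (adjusted p = 0.000191), by 1.27 for *Gimap3* (adjusted p = 0.000305) and by 1.18 for *Gimap7* (adjusted p = 0.000338). The same difference was 0.97 for *Gimap5* (adjusted p = 0.00186), 0.83 for *Gimap8* (adjusted p = 0.00543) and 0.67 for *Gimap6* (adjusted p = 0.00552). With voom on implied fragments the differences of *Gimap4* (1.60, adjusted p = 0.574) and *Gimap8* (1.27, adjusted p = 0.682) did not pass. For *Gimap9* the Th17 minus Th2 difference was -0.73 (adjusted p = 0.0027). For *Gimap7* the subsets also moved in opposite directions from naïve cells, higher in both Th1 and both Th2 libraries and lower in both Th17 libraries. Groups of 2 libraries are too small to look for outlying samples.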

How the results depend on the processing

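Of 480 single-gene values under alternatives other than a left-out library, 456 kept direction and call, 11 lost the call, 6 gained it and 7 reversed; with a library left out the numbers were 353, 19, 5 and 7 of 384. The replicate block changed no call but that of *Gimap1* in Th1 against naïve cells (adjusted p = 0.0464). Voom on implied fragments reversed *Gimap4* against naïve cells (2.21 for Th1, 1.84 for Th2 and 0.61 for Th17; adjusted p 0.298 to 0.78) and *Gimap8* (1.79, 0.75 and 0.53; adjusted p 0.415 to 0.815): the wide interval of 1 naïve library for each gene implied 164 and 145 fragments there, against 13299 and 13896 in the other naïve library. Quantile normalization reversed *Gimap7* in Th1 against Th2 (-0.067, adjusted p = 0.607). Leaving out a library reversed values that had not passed: *Gimap1* ranged from -0.013 to 0.43 in Th1 minus Th2 and from -0.35 to 0.10 in Th17 minus Th2, *Gimap5* from -0.20 to 0.073 in Th1 minus naïve, *Gimap8* from -0.21 to 0.14 in Th17 minus Th2, and *Gimap9* from -0.076 to 0.052 in Th1 minus Th2.

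The count of GIMAP genes higher in Th1 than Th2, 5, was 3 after quantile normalization, 3 with voom and 2 to 5 with a library left out. *Gimap3* in Th1 against naïve cells also lost its call with no filter (adjusted p = 0.054), after median scaling (adjusted p = 0.0528) and in a fit of the 2 groups alone (adjusted p = 0.106); the cause was not tested. Over all genes, those called lower in Th17 than Th2, 1339, became 2018 with median scaling, 2191 with quantile normalization and 877 to 1328 with a library left out. Those higher, 3546, became 2303, 2256 and 1861 to 3548. The share of calls that were higher moved from 72.6% to 53.3% and 50.7% there, from 36.5% to 48.1% and 49.7% in Th1 minus Th17, from 61.8% to 50.9% under quantile normalization in Th1 minus Th2, and from 55.7% to 44.2% in Th17 minus naïve. The median over all genes moved by over 0.1 at most where quantile normalization took it from 0.08 to -0.12 in Th17 minus naïve and from -0.01 to -0.13 in Th1 minus naïve, and where the Th17 minus Th2 median went from 0.18 to 0.02 and 0.00 under the 2 scalings and the Th2 minus naïve median from -0.11 to 0.00 under median scaling; the members' medians kept their sign throughout. The number lower in Th1 than Th17, 1788, was 1047 at a mean FPKM of at least 5 and 954 to 1739 with a library left out; the number higher there was 557 to 1020, and that higher in Th1 than Th2 was 1753 to 3030. With 2 libraries a group, a fit without 1 of them assumes that the lone library varies like the other groups.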
